A study of Arabidopsis thaliana with 6 samples.

Results

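The genes described here are the enzymes of the Calvin cycle and of photorespiration in anthers of *Arabidopsis thaliana*. They were chosen by gene identifier from a list of 33 genes covering the small subunits of Rubisco, Rubisco activase, the plastid enzymes of the cycle, the CP12 proteins and the enzymes of photorespiration other than glycine decarboxylase, out of 32833 genes in the tables. RNA was sequenced from anthers, which the sample labels place at anther stages 9 to 13. There were 3 libraries of the wild type Col-0 and 3 of the homozygous mutant *ice1-2* (*ice1-2* -/-). Both were of the Col-0 ecotype and grown under long days in a greenhouse. The paper names flower stages instead of anther stages, and which scale holds for these libraries could not be checked. *ice1-2* carries a T-DNA in the third exon of *ICE1*, which encodes a bHLH transcription factor, and it is a single allele, so other differences between the lines cannot be told apart from the mutation. No treatment was applied in either group. The libraries are named A, B and C within each genotype, and nothing in the sources used here says that they came from separate plants or harvests, so p-values measure only the spread between these libraries. Levels are FPKM, a count of sequenced fragments scaled by transcript length and by the number mapped in the library, which allow genes of different length to be compared.

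In the Calvin cycle, Rubisco adds carbon dioxide to ribulose 1,5-bisphosphate, the resulting 3-phosphoglycerate is phosphorylated and reduced to triose phosphate with the ATP and NADPH made by the light reactions, and aldolases, phosphatases, transketolase, isomerases and phosphoribulokinase rebuild the acceptor. Rubisco also takes oxygen, and photorespiration salvages the phosphoglycolate formed in this way through chloroplast, peroxisome and mitochondrion. Both pathways are best known from leaves, and young anther walls of *Arabidopsis* also hold chloroplasts.

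Before any comparison, the libraries differed in ways that the genotype labels do not give. Ribosomal RNA loci took between 0.599% and 5.40% of the summed FPKM in 5 of the 6 libraries and 14.7% in *ice1-2* A, and a rough depth read from the steps of the low values was 6300000 fragments in *ice1-2* A against 15700000 to 30800000 in the other 5. *ICE1* itself stood at 9.25 to 14.0 FPKM in Col-0 and 12.9 to 21.5 FPKM in *ice1-2*, so it was not lower in the mutant libraries. The paper calls the allele null and reports very low *ICE1* expression in *ice1-2* inflorescences by qRT-PCR, which is another tissue and measure. A value over the whole gene does not check for an insertion, so the libraries were taken by their labels. The median log2 fold change over all 18858 genes tested was 0.15, and scaling the libraries by median ratios took it to -0.01, so each change below is to be read against 0.15.

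The Calvin cycle and photorespiration genes were higher in *ice1-2* than in Col-0 for most enzymes. Of the 33 genes, all of which passed the filter on low values, 11 rose and none fell at a log2 fold change beyond 1 with a Benjamini-Hochberg adjusted p under 0.05 (limma). Over all genes tested, 1.54% rose and 0.233% fell by the same rule. The 11 were *RBCS2B*, *RBCS3B*, *GAPB*, *FBA2*, *CFBP1*, *SBPASE*, *RPI3*, *GOX1*, *GOX2*, *GGT1* and *GLU1*, with log2 fold changes of 1.14 to 2.50 and adjusted p of 0.0149 to 0.0477, and 22 of the 33 had an unadjusted p under 0.05, all with higher levels in *ice1-2*, beside 16.2% higher and 5.26% lower over all genes tested. All 3 *ice1-2* libraries lay above all 3 Col-0 libraries in 23 of the 33 genes (69.7%) and below them in none, while over all genes tested 19.8% lay wholly above and 7.39% wholly below. The calls rested on few libraries: without Col-0 B, *ice1-2* B or *ice1-2* C none of the 33 was called, without Col-0 C 1 was, and without Col-0 A or *ice1-2* A 11 and 12 were. Over all genes the count that rose, 291, fell in the same way, to 16, 22 and 24 in the first 3 of these fits and 24 without Col-0 C, and was 508 and 263 in the last 2. The count of genes with groups apart was between 23 and 27 in those same fits, counting either direction, where groups of 2 libraries separate more easily: the share of all genes wholly above was 21.6% to 36.3%. Scaling by median ratios left 7 called, and 22 wholly above and 1 wholly below. Over all 18858 genes tested, that scaling gave 128 higher and 34 lower by the test, with 2727 wholly above and 2853 wholly below. Since tissue was sequenced in bulk, a change in the number of cells of a type and a change in RNA per cell cannot be told apart.

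**Figure D1:**
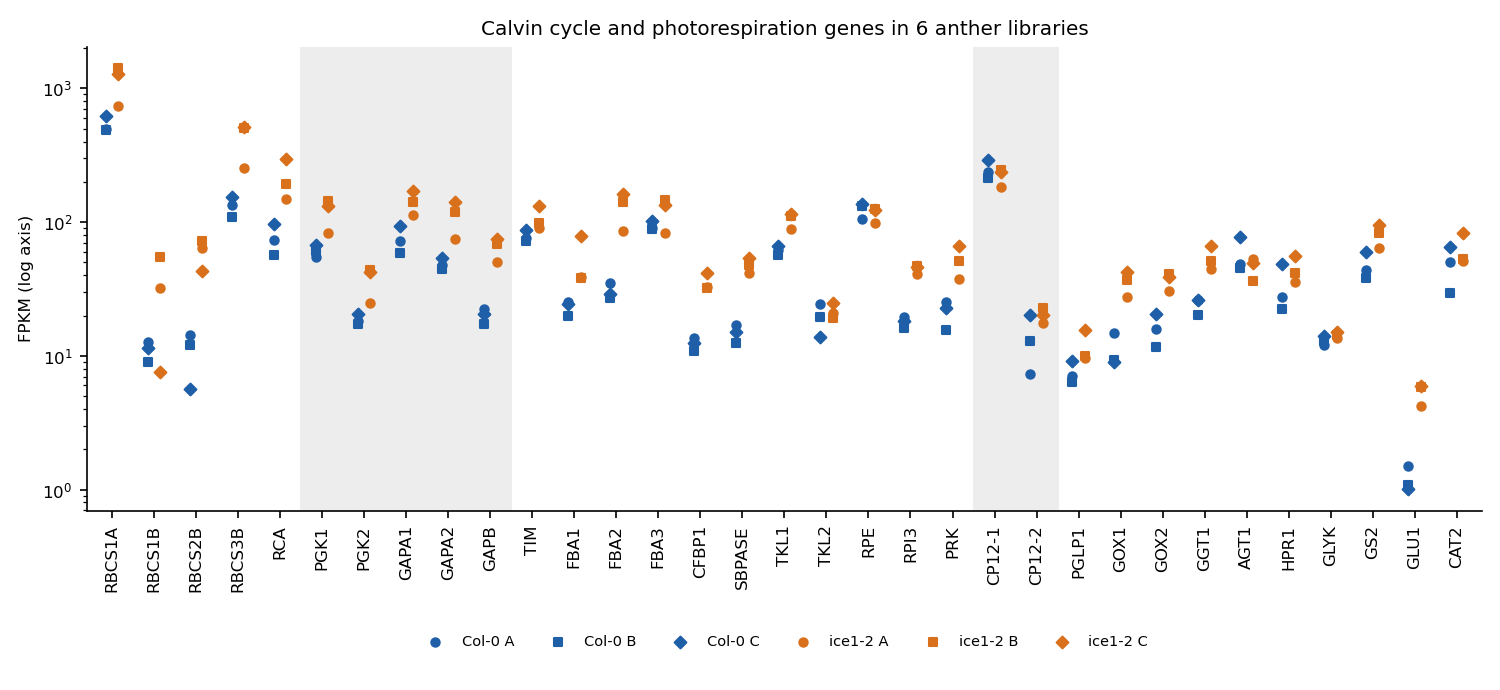
FPKM of each of the 33 genes (log axis) in the 3 Col-0 libraries (blue) and the 3 *ice1-2* libraries (orange), with the marker shape giving the library letter and shading the gene groups. The orange points lie wholly above the blue ones in 23 genes, and the levels run from 1.00 FPKM for *GLU1* to 1418 FPKM for *RBCS1A*.

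Summed over the 33 genes, the level was 1927, 1766 and 2317 FPKM in the Col-0 libraries A to C, and 2771, 4254 and 4402 FPKM in the *ice1-2* libraries in the same order. The sum was 1.90 times as high in *ice1-2* by the group means, and 1.64 times without the 4 *RBCS* genes. *ice1-2* A, the library rich in ribosomal RNA, was the lowest of its group: the median gene there stood 0.61 (log2) above the Col-0 mean, against 1.22 in each of *ice1-2* B and C. The highest of the 6 libraries was *ice1-2* C for 21 genes, *ice1-2* B for 9 and Col-0 C for 3, and the lowest was Col-0 B for 21.

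Markers of other cells in or around the anther were read from 5 lists, in which 1 gene rose and 1 fell. The tapetum list (7 of 10 genes tested) had no call in either direction and no unadjusted p under 0.05, and its summed level ran from 1174 to 5944 FPKM in Col-0 and from 1968 to 3359 FPKM in *ice1-2*, with its most abundant genes *GRP17* and *LTP12* far higher in Col-0 A than in the other Col-0 libraries. The *ice1-2* libraries were uneven too. Given here after its values were seen, *A9* read 50.2, 0.0682 and 0.0644 FPKM in Col-0 and 1.43, 39.7 and 6.78 FPKM in *ice1-2*. Within *ice1-2*, *MS2*, *CYP703A2* and *ACOS5* were also highest in library B, whereas *GRP17*, *LTP12* and *AMS* were highest in library C. The pollen list (9 genes) had no call either and 2 genes lower at an unadjusted p under 0.05, all 9 had a negative log2 fold change (median -0.50), and its sum was 12707 to 16255 FPKM in Col-0 against 7725 to 13172 FPKM in *ice1-2*. Its most abundant genes were the pectin methylesterases *VGD1* (log2 fold change -0.60) and *VGDH1* (-0.50). Both lists hold abundant RNAs of the anther, as the label says. The endothecium list (3 genes, none called and none with an unadjusted p under 0.05) summed to 29.9 to 55.2 FPKM in Col-0 and 39.1 to 69.1 FPKM in *ice1-2*, with *NST1* (0.40) and *MYB26* (0.06) as its most abundant. In the guard cell list (4 of 9 genes tested) *TGG1*, a myrosinase of guard cells and phloem idioblasts, fell (log2 fold change -1.60, adjusted p = 0.0311), its relative *TGG2* lay wholly lower without a call (-1.15, adjusted p = 0.0779), and the list summed to 105 to 124 FPKM in Col-0 and 39.8 to 76.9 FPKM in *ice1-2*. That sum rests on these 2 genes: the others tested, given here after their values were seen, were *KAT1* (log2 fold change 1.31, adjusted p = 0.246) and *MYB60* (-0.04, adjusted p = 0.949). *KAT1* was uneven in Col-0 (17.3, 2.91 and 2.52 FPKM), with Col-0 A above every *ice1-2* library. The genes not tested, also given after their values were seen, stayed below 1 FPKM in every library. Of them *SLAC1*, *ALMT12* and *HT1* lay wholly lower in *ice1-2*, and *KAT2* and *GC1* overlapped. *TGG1* no longer passed when Col-0 B (adjusted p = 0.108), Col-0 C (0.0752) or *ice1-2* B (0.0802) was left out. The list for sepal, carpel and ovule (4 of 7 genes tested) summed to 3.48 to 8.40 FPKM in Col-0 and 12.1 to 16.3 FPKM in *ice1-2*, with no gene at 0 and *FUL* (0.68, not called) as its most abundant. In it *CRC*, a regulator of carpel and nectary development, was at 0.499, 0.918 and 0.327 FPKM in Col-0 and 4.27, 3.03 and 2.52 FPKM in *ice1-2* and rose (log2 fold change 1.81, adjusted p = 0.0326). Since the filter needed 1 FPKM in 3 libraries, *CRC* entered the test only through *ice1-2*, where it was high. Of the others, given here after their values were seen, *AP1* lay wholly higher without a call (log2 fold change 1.24, adjusted p = 0.107). *FUL* and *SHP2* (0.44), both tested, overlapped, as did *SHP1*, *STK* and *INO*, which were not tested. The part of these cell types in the changes of the Calvin cycle and photorespiration genes was not tested.

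The Rubisco small subunit genes spanned much of the range of levels. *RBCS1A* (AT1G67090), the most abundant of the 33 transcripts in every library, was measured at 493, 485 and 625 FPKM in Col-0 (libraries A to C, the order used throughout) and at 735, 1418 and 1276 FPKM in *ice1-2*. Every *ice1-2* library exceeded every Col-0 library, the group means were 534 ± 78.5 and 1143 ± 360.2 FPKM (SD, n = 3), and the change missed the threshold (log2 fold change 1.05 ± 0.31 SE, adjusted p = 0.106). *RBCS3B* (AT5G38410) rose from 133, 110 and 155 FPKM to 253, 504 and 514 FPKM, with a log2 fold change of 1.61 ± 0.31 SE and an adjusted p of 0.0456. Here too *ice1-2* A was the lowest of the mutant libraries, yet above all of Col-0.

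*RBCS2B* (AT5G38420) had the largest fold change of the 33 genes. It was measured at 14.3, 12 and 5.64 FPKM in Col-0 and at 64.1, 72.4 and 42.8 FPKM in *ice1-2*, that is 10.6 ± 4.48 and 59.8 ± 15.3 FPKM (SD, n = 3). The groups did not overlap, and the log2 fold change was 2.50 ± 0.34 SE (adjusted p = 0.0254). *RBCS1B* (AT5G38430) read 12.7, 9.03 and 11.5 FPKM in Col-0 and 32.3, 54.8 and 7.60 FPKM in *ice1-2*. It was the only one of the 4 *RBCS* genes whose groups overlapped, with *ice1-2* C as the lowest library of all 6, and its log2 fold change of 1.1 ± 0.60 SE did not pass (adjusted p = 0.322). Without *ice1-2* C that value was 1.89 and without *ice1-2* B it was 0.51, and it passed in neither fit (adjusted p = 0.0592 and 0.663).

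*RBCS3B*, *RBCS2B* and *RBCS1B* lie in this order on chromosome 5, all on the minus strand, with 2264 bases between *RBCS3B* and *RBCS2B* and 1095 between *RBCS2B* and *RBCS1B*. The coding sequence of *RBCS1B* is 97.3% identical to that of *RBCS2B* and 94.1% to that of *RBCS3B*, and 29.3% of its 100-base windows occur unchanged in *RBCS3B*, so the split of reads between these genes is uncertain. *RBCS1A* on chromosome 1 is 87.7% to 90.1% identical to them.

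The share of each gene in the small subunit RNA of a library also differed between the groups. *RBCS1A* made up 75.5% to 78.7% of the summed *RBCS* FPKM in Col-0 and 67.8% to 69.3% in *ice1-2*. The share of *RBCS3B* was 17.9% to 20.4% in Col-0 and 23.3% to 27.9% in *ice1-2*, and that of *RBCS2B* 0.708% to 2.19% and 2.33% to 5.92%. These shares did not overlap between the genotypes, whereas those of *RBCS1B* did (1.45% to 1.94% and 0.413% to 2.98%). With 3 libraries against 3 an exact permutation test could not go below p = 0.1, and none was run on the shares.

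Upstream sequence is shown for the neighbours *RBCS2B* and *RBCS1B*, which had the largest change and the least even one among the Rubisco genes, and for *CFBP1*, described with the phosphatases, because *RBCS2B* and *CFBP1* were the only genes of the 33 with both motifs known from light-responsive plant promoters in their window. The windows are the 250 bases before the outermost annotated transcript start in TAIR10.1, at chr5:15382072-15382321 (minus strand) for *RBCS2B*, chr5:15385321-15385570 (minus strand) for *RBCS1B* and chr3:20016587-20016836 (plus strand) for *CFBP1*. Capitals mark the G-box CACGTG and the I-box GATAAG, the latter also in its reverse form CTTATC.
RBCS2B: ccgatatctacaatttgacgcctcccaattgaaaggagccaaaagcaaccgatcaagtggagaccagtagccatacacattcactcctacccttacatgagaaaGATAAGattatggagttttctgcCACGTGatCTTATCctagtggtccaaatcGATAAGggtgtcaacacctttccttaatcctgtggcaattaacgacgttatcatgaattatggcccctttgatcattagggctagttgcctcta
RBCS1B: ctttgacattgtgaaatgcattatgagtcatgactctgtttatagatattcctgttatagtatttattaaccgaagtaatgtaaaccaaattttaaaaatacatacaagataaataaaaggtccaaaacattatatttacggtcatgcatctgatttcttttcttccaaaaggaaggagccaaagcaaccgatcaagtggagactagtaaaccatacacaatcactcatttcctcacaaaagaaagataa
CFBP1: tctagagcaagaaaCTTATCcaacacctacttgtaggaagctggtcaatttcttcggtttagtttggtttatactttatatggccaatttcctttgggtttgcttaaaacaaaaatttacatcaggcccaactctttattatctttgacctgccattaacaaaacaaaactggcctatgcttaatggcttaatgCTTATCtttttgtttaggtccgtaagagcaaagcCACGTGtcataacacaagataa

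The *RBCS2B* window holds 1 G-box and 3 I-boxes and that of *CFBP1* 1 G-box and 2 I-boxes, while that of *RBCS1B* holds neither. Both *RBCS* windows share the run aaagcaaccgatcaagtggagac, which begins 302 bases before the start codon of *RBCS2B* and 234 before that of *RBCS1B*; the annotated starts lie 93 and 165 bases before these codons, so the windows do not cover the same distance. All marked boxes of *RBCS2B* lie between that run and its annotated start. The *RBCS1B* window ends shortly after the run, in gataa, which lacks only the last letter of the I-box. The lack of boxes in the *RBCS1B* window therefore cannot tell whether the matching stretch holds any. A G-box occurred in the windows of 5 of the 33 genes (15.2%) and of 7.05% of 23490 genes, an I-box in 4 (12.1%) and 12.3%. The E-box CANNTG, the general bHLH motif, of which the G-box is one form, occurred in 18 (54.5%) and 56.1%. These matches describe letters in a window and are not sites of binding.

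Rubisco activase (*RCA*, AT2G39730), which frees Rubisco of bound sugar phosphates, was measured at 73.6, 57.2 and 97.1 FPKM in Col-0 and 149, 193 and 297 FPKM in *ice1-2*. The groups lay apart, and the change came just short of the threshold (log2 fold change 1.46 ± 0.30 SE, adjusted p = 0.0505). The large subunit of Rubisco is encoded in the plastid, and its *RBCL* transcript read 1.60, 14.8 and 2.39 FPKM in Col-0 and 46.9, 16.5 and 14.3 FPKM in *ice1-2*. The groups overlapped, the highest value belonged to the library with the most ribosomal RNA, and the change did not pass (log2 fold change 2.33 ± 0.73 SE, adjusted p = 0.120).

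Of the 5 genes for the reduction of 3-phosphoglycerate, 1 rose, and in all 5 every *ice1-2* library lay above every Col-0 library. *GAPB* (AT1G42970), the regulatory subunit of the NADPH-dependent glyceraldehyde-3-phosphate dehydrogenase of the plastid, rose from 22.5, 17.2 and 20.6 FPKM to 50.5, 69.0 and 74.5 FPKM (log2 fold change 1.65 ± 0.21 SE, adjusted p = 0.0197). Its partner subunits did not pass: *GAPA1* (AT3G26650) had 72.4, 58.3 and 93.1 FPKM in Col-0 against 113, 141 and 172 FPKM in *ice1-2* (log2 fold change 0.93, adjusted p = 0.0831). *GAPA2* (AT1G12900) had 47.8, 44.8 and 53.9 FPKM against 74.4, 119 and 142 FPKM (log2 fold change 1.14, adjusted p = 0.0581). In both genes the lowest mutant library, *ice1-2* A, was still higher than all of Col-0.

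The 2 plastid phosphoglycerate kinases, which make 1,3-bisphosphoglycerate, had the same log2 fold change of 0.93 ± 0.24 SE (adjusted p = 0.0818 for each). *PGK1* (AT3G12780) was at 55.2, 60.8 and 67.1 FPKM in Col-0 and 82.5, 143 and 133 FPKM in *ice1-2*, and *PGK2* (AT1G56190) at 18.2, 17.3 and 20.7 FPKM and 24.9, 44.1 and 42.3 FPKM. Their coding sequences are 86.3% identical with no 100-base window in common. Without *ice1-2* A both genes passed the test (adjusted p = 0.0449 and 0.0428, log2 fold change 1.17 and 1.19), and in the other 5 fits that left out a library neither did (adjusted p = 0.120 to 0.241, log2 fold change down to 0.78).

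Among the 11 genes that regenerate ribulose bisphosphate, 4 rose: both sugar bisphosphatases, an aldolase and an isomerase. *SBPASE* (AT3G55800), sedoheptulose-1,7-bisphosphatase, was at 17.1, 12.5 and 15.1 FPKM in Col-0 and 41.6, 48.1 and 53.8 FPKM in *ice1-2*, with 14.9 ± 2.33 and 47.8 ± 6.10 FPKM as group means (SD, n = 3). Its log2 fold change of 1.65 ± 0.19 SE had the lowest adjusted p of the 33 genes (0.0149). *CFBP1* (AT3G54050), the plastid fructose-1,6-bisphosphatase, rose from 13.5, 10.9 and 12.4 FPKM to 33, 32.1 and 41.7 FPKM (log2 fold change 1.49 ± 0.18 SE, adjusted p = 0.0184). For both phosphatases the highest Col-0 library was less than the lowest *ice1-2* library and the gap between them exceeded the SD of either group. A gene on the opposite strand, AT3G54060, overlaps 8.41% of *CFBP1* and was listed at 0.201 to 0.701 FPKM.

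The plastid aldolases, which join triose phosphates to sugar bisphosphates, differed from each other. *FBA2* (AT4G38970) rose from 34.7, 27.3 and 29.0 FPKM to 86.1, 141 and 161 FPKM (log2 fold change 2.03 ± 0.26 SE, adjusted p = 0.0197). *FBA1* (AT2G21330) was at 25.3, 19.7 and 24.2 FPKM in Col-0 and 38.9, 37.9 and 78.5 FPKM in *ice1-2*. Its groups lay apart without a call (log2 fold change 1.07, adjusted p = 0.0905). *FBA3* (AT2G01140), the most abundant of these in Col-0, had 90.3, 88.6 and 102 FPKM there and 83.4, 146 and 135 FPKM in *ice1-2*, so that its groups overlapped (log2 fold change 0.33, adjusted p = 0.457). In Col-0 *FBA3* therefore stood at about 3 times the level of *FBA2*, and in the *ice1-2* libraries the levels of these genes were 83.4 to 146 FPKM and 86.1 to 161 FPKM.

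*RPI3* (AT3G04790), a plastid ribose-5-phosphate isomerase, rose from 19.5, 16.2 and 18.2 FPKM to 40.8, 47.0 and 46.5 FPKM (log2 fold change 1.3 ± 0.17 SE, adjusted p = 0.0209). A gene on the opposite strand, AT3G01505, overlaps 23.7% of it and was listed at 0 in every library. Phosphoribulokinase (*PRK*, AT1G32060), which makes the carbon dioxide acceptor itself, was at 25.2, 15.6 and 22.6 FPKM in Col-0 and 37.6, 51.2 and 66.2 FPKM in *ice1-2*. Its groups lay apart, and it came just short of the threshold (log2 fold change 1.26 ± 0.26 SE, adjusted p = 0.0512).

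The other 4 genes of this group did not pass. *TKL1* (AT3G60750), the main plastid transketolase, lay apart at 56.3 to 66.4 FPKM in Col-0 and 88.1 to 114 FPKM in *ice1-2* (log2 fold change 0.75, adjusted p = 0.0757), and plastid triose-phosphate isomerase *TIM* (AT2G21170) at 72.5 to 87.0 FPKM and 89.7 to 131 FPKM (log2 fold change 0.42, adjusted p = 0.275). *TKL2* (AT2G45290), a second transketolase, ranged from 13.9 to 24.4 FPKM and from 19.1 to 24.8 FPKM (log2 fold change 0.19, adjusted p = 0.665). *RPE* (AT5G61410), ribulose-phosphate epimerase, was at 105, 132 and 137 FPKM in Col-0 and 97.6, 126 and 123 FPKM in *ice1-2* (log2 fold change -0.11, adjusted p = 0.783). For *TKL2* and *RPE* the libraries of both genotypes were mixed.

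CP12 is a small protein that binds glyceraldehyde-3-phosphate dehydrogenase and phosphoribulokinase into an inactive complex in the dark, and neither of its genes was called or had an unadjusted p under 0.05. *CP12-1* (AT2G47400) was the second most abundant of the 33 transcripts in Col-0, with 236, 214 and 291 FPKM, and had 183, 244 and 238 FPKM in *ice1-2* (log2 fold change -0.16 ± 0.22 SE, adjusted p = 0.717). *CP12-2* (AT3G62410) read 7.34, 12.8 and 20.0 FPKM in Col-0 and 17.6, 22.9 and 20.1 FPKM in *ice1-2* (log2 fold change 0.67 ± 0.32 SE, adjusted p = 0.271). Groups overlapped in both genes, and the summed CP12 level in *ice1-2* was 0.928 times that of Col-0, while the summed *GAPA* and *GAPB* level was 2.22 times as high.

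Of the 10 photorespiration genes, 4 rose, and they encode both glycolate oxidases, a peroxisomal aminotransferase and the plastid glutamate synthase. Glycolate oxidase turns glycolate into glyoxylate in the peroxisome. *GOX1* (AT3G14420) rose from 14.7, 9.29 and 8.93 FPKM to 27.7, 37.0 and 42.1 FPKM (log2 fold change 1.67 ± 0.25 SE, adjusted p = 0.0283), and *GOX2* (AT3G14415) from 15.9, 11.7 and 20.5 FPKM to 30.3, 40.6 and 39.1 FPKM (log2 fold change 1.19 ± 0.23 SE, adjusted p = 0.0477). In each the libraries of the genotypes were separate. The genes are neighbours on chromosome 3 with 377 bases between them and coding sequences that are 90.9% identical, and no 100-base window is shared.

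*GGT1* (AT1G23310), the peroxisomal glutamate:glyoxylate aminotransferase that makes glycine, rose from 26.2, 20.2 and 25.9 FPKM to 44.9, 50.7 and 66.5 FPKM (log2 fold change 1.14 ± 0.21 SE, adjusted p = 0.0416). *GLU1* (AT5G04140), the ferredoxin-dependent glutamate synthase that returns photorespiratory ammonia to glutamate, rose from 1.49, 1.08 and 1.00 FPKM to 4.24, 5.84 and 5.91 FPKM (log2 fold change 1.79 ± 0.23 SE, adjusted p = 0.0197). It was the least abundant of the 33 genes, and its values lay near the filter of 1 FPKM in Col-0. Plastid glutamine synthetase *GS2* (AT5G35630), which acts just before it, had 43.6, 38.0 and 59.4 FPKM in Col-0 and 64.0, 83.1 and 94.4 FPKM in *ice1-2*, with groups apart and no call (log2 fold change 0.78, adjusted p = 0.112).

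The later peroxisomal steps, and the first and last plastid steps, had no call. *AGT1* (AT2G13360), serine:glyoxylate aminotransferase, had the lowest fold change of the 33 genes, with 48.5, 45.3 and 77.4 FPKM in Col-0 and 52.8, 36.2 and 49.4 FPKM in *ice1-2* (log2 fold change -0.28 ± 0.25 SE, adjusted p = 0.556). *HPR1* (AT1G68010), hydroxypyruvate reductase, ranged from 22.3 to 48.8 FPKM and from 35.7 to 55.9 FPKM (log2 fold change 0.48, adjusted p = 0.394). *GLYK* (AT1G80380), glycerate kinase, which returns the carbon to the cycle, was the most even, at 12 to 14.1 FPKM and 13.7 to 15.1 FPKM (log2 fold change 0.13, adjusted p = 0.664). Groups overlapped in all 3 of these genes.

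*CAT2* (AT4G35090), the leaf catalase that removes the hydrogen peroxide made by glycolate oxidase, was at 50.3, 29.4 and 64.8 FPKM in Col-0 and 51.5, 52.7 and 83.2 FPKM in *ice1-2*, with overlapping groups (log2 fold change 0.41 ± 0.32 SE, adjusted p = 0.486). *PGLP1* (AT5G36700), phosphoglycolate phosphatase, was at 7.04, 6.40 and 9.07 FPKM and 9.59, 9.92 and 15.5 FPKM, with groups apart (log2 fold change 0.59, adjusted p = 0.198). Its value is uncertain, since the coding sequence of AT5G36790 is 100% identical to it, and that copy read 7.86 to 10.2 FPKM in Col-0 and 12.2 to 17.8 FPKM in *ice1-2*.

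**Figure D2:**
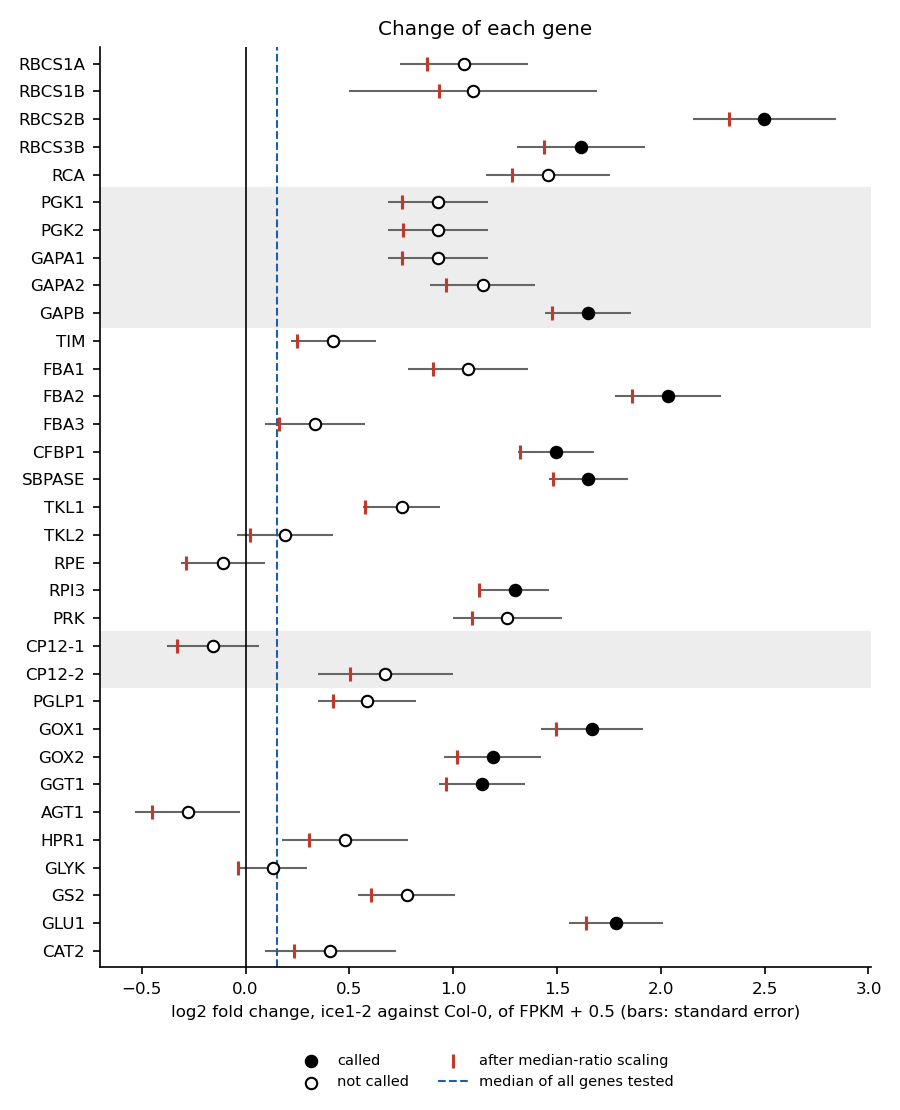
Log2 fold change of each of the 33 genes (*ice1-2* against Col-0, on log2(FPKM + 0.5), with standard errors as bars), with filled points for the 11 genes called, red ticks for the value after median-ratio scaling and a dashed line at 0.15, the median of all genes tested. *RBCS2B* and *FBA2* lie farthest to the right, and *RPE*, *CP12-1* and *AGT1* lie below 0.

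By group, the median log2 fold change was 1.46 for Rubisco and its activase, 0.93 for the reduction genes, 1.07 for regeneration, 0.26 for the CP12 pair and 0.68 for photorespiration. After median-ratio scaling these medians were 1.28, 0.76, 0.90, 0.09 and 0.51. Over all 33 genes the median was 1.05, and 0.88 after scaling, beside 0.15 and -0.01 over all genes tested. Of the 22 genes not called, 12 had groups apart with log2 fold changes of 0.42 to 1.46, and 10 overlapped with values of -0.28 to 1.1.

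Many enzymes of the cycle have an isozyme elsewhere in the cell or in other tissues, and a difference between both taken within a library does not depend on the scaling between libraries. Such differences of log2(FPKM + 0.5) were compared in 8 pairs by an exact two-sided permutation test, which with 3 libraries against 3 cannot go below p = 0.1. *CFBP1* minus *cyFBP*, the cytosolic fructose-1,6-bisphosphatase of sucrose synthesis, was -1.54 ± 0.10 in Col-0 and 0.15 ± 0.22 in *ice1-2* (SD, n = 3), a shift of 1.68 (exact p = 0.1, 0.4 adjusted over the 8 pairs). *FBA2* minus the cytosolic aldolase *FBA8* was -1.79 ± 0.20 and -0.45 ± 0.22, a shift of 1.34 (exact p = 0.1, 0.4 adjusted). In these 2 pairs all 3 *ice1-2* libraries lay above all 3 Col-0 libraries, which gives the smallest p this design allows and did not pass after adjustment.

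The other 6 pairs overlapped. The shift was 0.33 for *PGK1* minus *PGK3* (exact p = 0.3), 0.27 for *GAPA1* minus *GAPC1* (exact p = 0.5) and -0.26 for *TIM* minus *CTIMC* (exact p = 0.4), whose partners are cytosolic glycolytic enzymes. It was 0.39 for *GS2* minus the cytosolic *GLN1;2* (exact p = 0.2), -0.18 for *HPR1* minus the cytosolic *HPR2* (exact p = 0.7) and 0.22 for *CAT2* minus *CAT3* (exact p = 0.8). *HPR1* minus *HPR2* changed sign without Col-0 C (0.10), and *CAT2* minus *CAT3* without Col-0 B (-0.08) or *ice1-2* C (-0.13). *GS2* minus *GLN1;2* was -3.54 to -2.59 over the 6 libraries, so the cytosolic enzyme had the higher level in each.

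**Figure D3:**
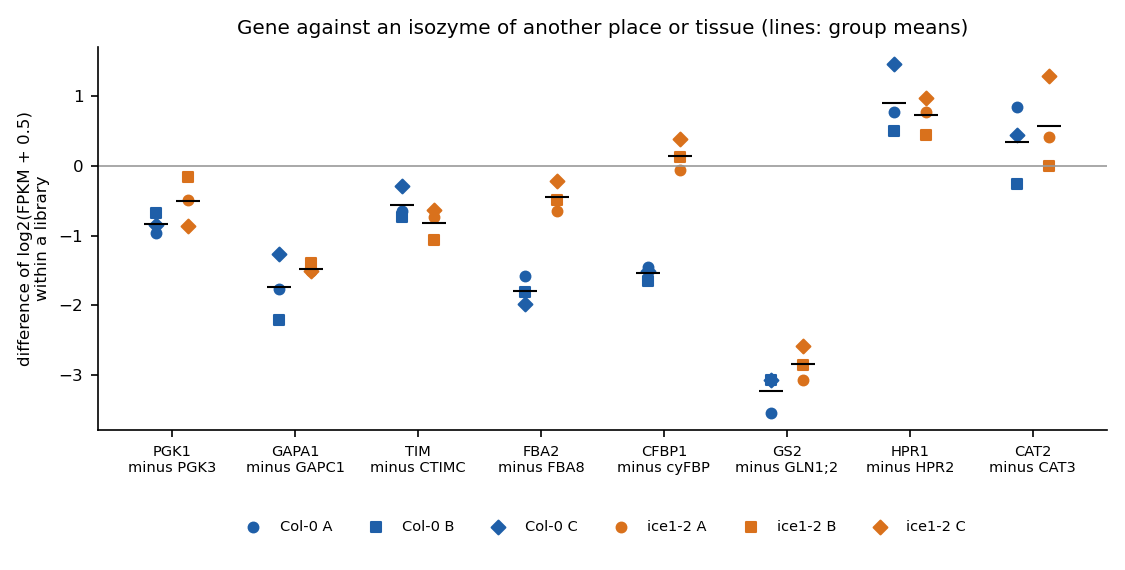
Difference of log2(FPKM + 0.5) between a gene and its isozyme within each library, for 8 pairs, with Col-0 in blue, *ice1-2* in orange, the marker shape giving the library letter and a line at each group mean. The groups are separate only for *FBA2* minus *FBA8* and *CFBP1* minus *cyFBP*.

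Across the whole list of 22 cytosolic and non-photosynthetic isozymes, 21 were tested, 1 rose and none fell. The list had a median log2 fold change of 0.40 (0.22 after median-ratio scaling), and 8 of its genes lay wholly higher and 2 wholly lower in *ice1-2*. The gene that rose was *GLN1;4*, a cytosolic glutamine synthetase, from 3.03, 2.66 and 2.15 FPKM to 5.49, 11.0 and 11.9 FPKM (log2 fold change 1.62, adjusted p = 0.0411). The most abundant were *GLN1;2* (log2 fold change 0.39) and *GAPC1* (0.66), neither of them called.

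Further genes of photorespiration were read from 2 lists. Glycine cleavage in the mitochondrion had 3 of 8 genes higher by the test and none lower, with a median log2 fold change of 0.74 and 7 genes wholly higher. *GLDH3*, an H protein that carries the aminomethyl group, rose from 22.8, 16.1 and 21.1 FPKM to 40.1, 79.4 and 61.9 FPKM (log2 fold change 1.53, adjusted p = 0.0383), and *GLDH1* had a log2 fold change of 1.34 (adjusted p = 0.0461). The most abundant genes of that list, *GLDH2* (0.56) and the T protein *GLDT* (0.93, adjusted p = 0.0516), were not called.

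The list of other photorespiration genes had 3 of 19 higher by the test and none lower, with a median of 0.31. *PMDH2*, a peroxisomal malate dehydrogenase, rose from 6.37, 3.69 and 4.73 FPKM to 14.2, 18.5 and 21.1 FPKM (log2 fold change 1.78, adjusted p = 0.0250). *PLGG1*, the plastid transporter of glycolate and glycerate, rose with a log2 fold change of 1.52 (adjusted p = 0.0337), and *SHM1*, the mitochondrial serine hydroxymethyltransferase that works with glycine decarboxylase, with 1.33 (adjusted p = 0.0283). *CAT1*, the most abundant gene of the list and a catalase known from pollen and seeds, was at 139, 167 and 176 FPKM in Col-0 and 117, 122 and 106 FPKM in *ice1-2*; it lay wholly lower without a call (log2 fold change -0.48, adjusted p = 0.192).

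Genes that build or control the enzymes were also measured. In the list for Rubisco assembly 2 of 11 genes rose, among them *BSD2* (log2 fold change 1.08, adjusted p = 0.0350), a chaperone that acts on the large subunit, with a list median of 0.63. The chaperonin genes *CPN20* (0.63) and *CPN60A1* (0.61) were the most abundant and were not called. In the list for redox control 1 of 9 rose, with a median of 0.65: *TRXF1*, the thioredoxin that reduces the plastid bisphosphatases in the light, went from 14.1, 10.6 and 11.7 FPKM to 36.9, 42.3 and 54.5 FPKM (log2 fold change 1.83, adjusted p = 0.0136), and was called in 4 of the 6 fits that left out a library. The more abundant *TRXM2* (0.38) and *TRXM1* (0.65) overlapped between the groups.

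Supply of carbon dioxide, triose phosphate export and starch synthesis had 1 of 12 genes higher by the test, with a median of 0.81. This was *CA1*, a plastid carbonic anhydrase, from 1.61, 1.65 and 0.552 FPKM to 11.4, 6.28 and 4.89 FPKM (log2 fold change 2.17, adjusted p = 0.0377). The triose phosphate exporter *TPT* was the most abundant of the list and lay wholly higher without a call (log2 fold change 1.01, adjusted p = 0.0771), followed by *SPSA1* of sucrose synthesis (0.42), whose groups overlapped.

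The light reactions, which feed the cycle with ATP and NADPH, are the set most like these enzymes. Of 39 genes for photosystems and light harvesting, 38 were tested, 11 rose, none fell and 29 lay wholly higher, with a median log2 fold change of 1.18 (1.00 after scaling), close to the 1.05 of the Calvin cycle and photorespiration genes. *LHCB6*, a minor antenna protein, rose from 70.8, 77.7 and 68.7 FPKM to 150, 197 and 264 FPKM (log2 fold change 1.45, adjusted p = 0.0338), and *PSAO* of photosystem I had a log2 fold change of 1.38 (adjusted p = 0.0311). The most abundant, *LHCB1.3* (0.88) and *PSBR* (0.99), lay wholly higher and were not called. As with the enzymes, these calls rested on few libraries: leaving out library B or C of either genotype gave 0 or 1 call, against 10 without Col-0 A and 9 without *ice1-2* A. The list did not follow the enzymes library by library. Its sum was 6086, 6510 and 10337 FPKM in *ice1-2* A to C, against 2771, 4254 and 4402 FPKM for the 33 genes. Some light-harvesting genes, given here after their values were seen, had *ice1-2* B within the Col-0 range. *LHCB2.1* read 27.5, 27.8 and 18.8 FPKM in Col-0 and 110, 23.6 and 212 FPKM in *ice1-2*, and *LHCA4* 131, 150 and 143 FPKM and 287, 132 and 464 FPKM.

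Of 14 regulators of greening, 10 were tested and none was called, with a median of 0.44 and 4 genes higher at an unadjusted p under 0.05. Their most abundant members, the plastid sigma factors *SIG2* (0.45) and *SIG6* (0.43), were among those without a call. Of the 10 tested, 4 lay wholly higher. Given here after its values were seen, *HYH* was 1 of these and came just short of the threshold (log2 fold change 1.74, adjusted p = 0.0508). It stayed below 1 FPKM in every Col-0 library, so it entered the test only through *ice1-2*. *GLK1* (0.09) and *GLK2* (0.34) overlapped. Fatty acid synthesis, a plastid pathway outside photosynthesis, had 1 of 9 genes higher by the test (*BCCP2*, 1.08, adjusted p = 0.0443) and a median of 0.58, and its most abundant genes *FAB2* (-0.04) and *CAC2* (0.56) were not called. Leaving out library B or C of either genotype also removed every call in the lists of isozymes, glycine cleavage, other photorespiration genes, Rubisco assembly, carbon dioxide supply and fatty acid synthesis, and that of *CRC*. Among the genes named from these lists, the calls of *CA1*, *CRC* and *PLGG1* were also lost without *ice1-2* A, and that of *BCCP2* without Col-0 A. Median-ratio scaling ended the calls of *CA1* (adjusted p = 0.0708), *CRC* (0.0606) and *GLDH1* (0.0549), and took *BSD2* and *BCCP2* to a log2 fold change of 0.91. It left 6 calls in the photosystem list, 1 in glycine cleavage and none in Rubisco assembly, carbon dioxide supply or fatty acid synthesis.

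**Figure D4:**
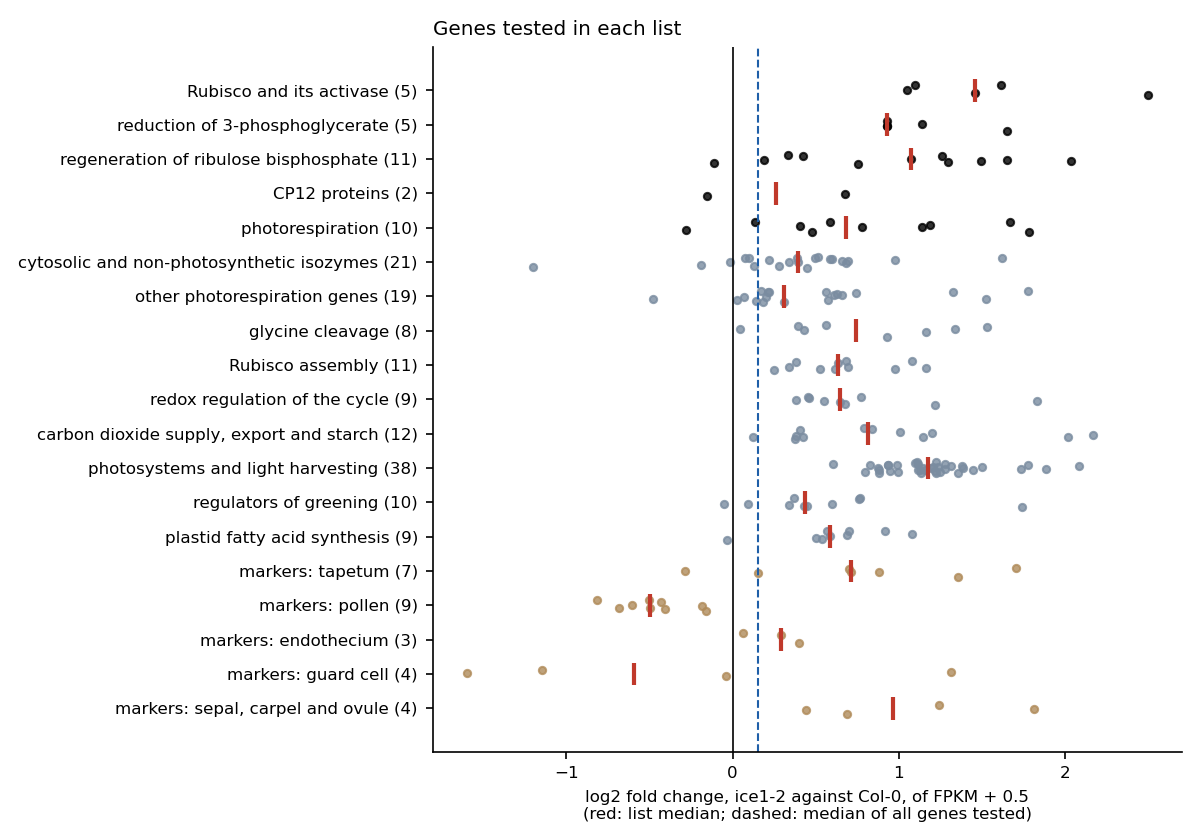
Log2 fold change (*ice1-2* against Col-0, on log2(FPKM + 0.5)) of every gene tested, by list (without the single gene *RBCL*, at 2.33), with the number tested in brackets, a red bar at each list's median and a dashed line at 0.15, the median of all genes tested. The photosystem list (median 1.18) and the Rubisco list (1.46) lie farthest to the right, and the medians of the guard cell and pollen markers lie to the left of 0.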

How the data were processed

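RNA from anthers was sequenced on an Illumina HiSeq. Per the labels the kits were those of ZYMO and Qiagen, and both single-end and paired-end reads are named. The authors trimmed reads, mapped them to TAIR10 with TopHat2, assembled and counted them, and deposited FPKM per gene, 1 table per library. The use of strand in counting was not given in the sources at hand. No read counts were analysed here, so depth was only estimated from the steps between low values.

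A gene entered the test with 1 FPKM or more in 3 or more libraries, which left 18858 of 27825 above 0 anywhere. The limma package (3.58.1, R 4.3.3) was run with its trend option on log2(FPKM + 0.5), with no covariate; the pseudocount understates changes of low genes. P-values were adjusted by Benjamini-Hochberg over all genes tested, and calls needed an adjusted p under 0.05 together with a log2 fold change beyond 1. The fit was also run on simulated data with independent noise for each gene and library. That run cannot tell how differences shared by the genes of a library affect the calls. The 8 isozyme pairs were compared by exact permutation tests (scipy 1.17.1). Upstream sequence, coordinates and coding identity came from RefSeq's TAIR10.1 (Biopython 1.88), whereas the labels name TAIR10. Other tools were Python 3.11.15, numpy 2.4.6, pandas 2.3.3 and matplotlib 3.10.9.

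The genes, lists, pairs and tests were chosen with earlier results of these data known. All 33 genes are accounted for. From every other list, at most 2 called genes in each direction, those that changed most, and the 2 with the highest mean FPKM are named, and *RBCL* always; 1 gene that this rule names is not reported here. Alternatives were pseudocounts of 0.1 and 1, no filter, median-ratio scaling, ribosomal RNA left out, each library left out, a replicate block, library quality weights and no limit on the fold.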

Additional observations from a re-analysis of the deposited data

How the results depend on the processing

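The number of Calvin cycle and photorespiration genes called, 11, was 3 with no filter on low values, 7 after median-ratio scaling and 17 with library quality weights. Over all genes the count that rose, 291 in the main fit, was 24, 128 and 663 in these fits. Of the 33 genes, 10 to 14 were called under the other pseudocounts, with ribosomal RNA left out and with no limit on the fold. Over all genes 242 to 592 rose in those fits. Leaving out 1 library gave 0 to 12 of the 33 genes, beside 16 to 508 that rose over all genes. With the library letter as a replicate block 3 of the 33 genes were called, beside 31 that rose over all genes. The deviations of same-letter libraries from their group means correlated at -0.21 (A), 0.05 (B) and 0.12 (C), so the letters were not taken to pair the libraries. The count of genes with groups apart does not involve the fit and has no value for the block or the weights; elsewhere it was 23 to 27. The median log2 fold change was 0.83 to 1.19 over all alternatives. Signs turned only for small changes. *GLYK* was -0.035 after median-ratio scaling. Without 1 library, *TKL2* ranged from -0.0198 to 0.38, *RPE* from -0.23 to 0.00597, *HPR1* minus *HPR2* from -0.38 to 0.10 and *CAT2* minus *CAT3* from -0.13 to 0.50. The alternatives for the pairs and the other lists were chosen after seeing the data. What caused these shifts was not tested. With 3 libraries a group, and one of them at 6300000 fragments by a rough estimate, a change that did not pass may have gone undetected.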
